A study of Homo sapiens with 6 samples.

Results

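Genes of fatty acid oxidation, with uptake and switch genes listed as driven by the nuclear receptor PPARA, were followed in Huh7 cells, an established human hepatoma cell line. 47 genes were taken by symbol, out of 50868 genes in the expression table, from a list drawn up with earlier results of these data known, and sorted by step of the pathway. 46 of them passed the filter on low counts, out of 15055 genes that did so. 3 libraries came from cells that received the plasmid PLC5-CIR carrying hsa_circ_0098181, a circular RNA made from exons of SOX5, and 3 came from cells given the control plasmid. Transfection was with Lipofectamine 2000, and total RNA was taken 48 h later, so that all groups shared 1 cell line, 1 transfection reagent and 1 time. The labels did not say that the 3 libraries of a group came from separate cultures, and p-values measure only the spread between these libraries. The study picked PPARA as a target of the microRNA miR-18a-3p from mRNA sequencing of Huh7 cells with the circle overexpressed, together with target prediction. The PPARA values below may come from that sequencing, and would then not be separate evidence. The study's luciferase reporter assays placed miR-18a-3p on the circle and on PPARA, and its Ago2 precipitation covered the circle and miR-18a-3p. By RT-qPCR it also reported more PPARA RNA with the circle in Huh7 and Hep3B cells. It further reported that a miR-18a-3p mimic weakened the rise of PPARA RNA and protein, and that xenografts with the circle held more PPARA. The question addressed here was whether genes of fatty acid oxidation and uptake, some of them known PPARA targets, differed between the groups. The list was not limited to known PPARA targets.

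Fatty acids enter liver cells through membrane proteins, are tied to coenzyme A by acyl-CoA synthetases, and are carried into mitochondria as carnitine esters by the carnitine shuttle. Inside, a spiral of dehydrogenation, hydration, a further dehydrogenation and thiolysis shortens the chain and hands electrons to the respiratory chain, while peroxisomes shorten very long and branched chains. PPARA is switched on by fatty acids, pairs with RXRA on DNA and raises many genes of both organelles in the fasted liver.

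SOX5, the host gene of the delivered circle, served as a check of the labels. The gene (ENSG00000134532) stood at 1905, 2396 and 2012 CPM (read counts per library, scaled to a common library size) in overexpression replicates 1 to 3 and at 41.8, 34.4 and 31.3 CPM in control replicates 1 to 3, a log2 fold change of 5.88 (SE 0.16, edgeR adjusted p = 2.6e-06). Reads of the plasmid and of linear SOX5 could not be told apart in gene counts, and the circle itself was not measured. Libraries held 11130902 to 14138262 counts. Genes of mitochondrial DNA took 6.32% to 7.04% of the counts with overexpression and 6.71% to 9.29% in the controls, with control replicate 1 the highest. All 10 of 10 hepatocyte and hepatoma markers were at 1 CPM or more, with a summed level of 31673 to 34395 CPM against 30754 to 36697 CPM, which are the markers of the labelled cell type. The 3 leukocyte markers summed to 10.3 to 14.6 CPM against 9.88 to 15.9 CPM, and the 4 stellate cell and fibroblast markers to 12.1 to 14.7 CPM against 11.5 to 14.7 CPM. The 3 endothelial markers summed to 54.4 to 55.6 CPM against 46.9 to 59.1 CPM, almost all of it PECAM1, with CDH5 at 0 counts in all 6 libraries. Fewer cells expressing a gene and less of its RNA per cell cannot be told apart in such bulk libraries.

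PPARA itself, which is not among the 47 genes, was uneven between the overexpression libraries. It stood at 24.2, 7.42 and 11.4 CPM in overexpression replicates 1 to 3 and at 6.37, 5.45 and 7.32 CPM in control replicates 1 to 3. The groups did not overlap, but the lowest overexpression library lay only just above the highest control, and replicate 1 alone lay far above the rest. The log2 fold change was 1.17 (SE 0.40, 95% interval 0.26 to 2.08), with an edgeR p of 0.018 before and 0.797 after adjustment over all genes tested. Without overexpression replicate 1 it was 0.56, and neither that fit nor the one without control replicate 2 passed an unadjusted p of 0.05. An exact two-sided permutation test gave p = 0.1, the smallest that 3 against 3 allows.

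The microRNA and its seed matches are shown because the link from the circle to PPARA that the study proposes runs through miR-18a-3p. Members of the pathway hold the same match. The PPARA stretches come from a search of letters, and whether they are the sites that the study predicted was not checked. The mature miR-18a-3p (RefSeq, GRCh38.p14, chr13:91350797-91350819, plus strand) is given with its seed, bases 2 to 8, in capitals, and below it stand the 30-base stretches of 3′ UTRs that hold the match AGGGCAG, in capitals, read from GENCODE 29 transcripts on GRCh38. The PPARA sites lie on the plus strand at chr22:46239236-46239265 and chr22:46239414-46239443. Those of CPT1A lie on the minus strand at chr11:68756801-68756830, chr11:68756623-68756652 and chr11:68756575-68756604.
hsa-miR-18a-3p: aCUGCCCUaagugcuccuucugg
PPARA site 1: ggttccagggacAGGGCAGcctcccagagc
PPARA site 2: gcctctgtagttAGGGCAGgtgggatggag
CPT1A site 1: agttccttcccaAGGGCAGctgtgccagac
CPT1A site 2: gtgacagcaaggAGGGCAGggcatcggcca
CPT1A site 3: gtgaggaaggggAGGGCAGcccaccgtggt

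The seed match was as common among the pathway genes as elsewhere. 8 of the 47 genes held it in the 3′ UTR of the transcript used, which is 17.0%, against 17.6% of 18932 coding genes. MLYCD held 4 sites and CPT1A 3, while ACADSB, HADHA, ECI1, DECR2, ACSL1 and ACSL4 held 1 each. Among the 8 genes that held it, the log2 fold changes had a median of -0.08 and 3 were above 0, and among the 38 tested genes that did not, the median was 0.09 and 26 were above 0. A seed match is a match of letters only, and levels of miR-18a-3p were not analysed here.

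No gene of the pathway was called. At an adjusted p of 0.05, edgeR called 0 of 46 genes higher and 0 lower, against 0.0266% and 0.0133% of all genes tested, and DESeq2 and limma called 0 as well. The smallest adjusted p was 0.797. At an unadjusted p of 0.05, 1 gene of 46 was higher (ACADS) and 1 was lower (CREB3L3), each 2.17% of the tested members, against 2.42% higher and 3.08% lower over all genes. The members' share was thus near the background in both directions.

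The fitted differences were small and their intervals mostly narrow. The 46 log2 fold changes had a median of 0.08, against 0.002 over all 15055 genes, and ran from -0.46 for PDK4 to 0.47 for SLC25A20. 29 lay above 0 and 17 below, so that 63.0% lay above 0, against 50.5% of all genes tested. The 95% interval stayed within a 2-fold difference either way for 44 genes (95.7%), against 84.1% of all genes tested, and within a 1.5-fold difference for 31 (67.4%), against 58.0%. SLC25A20, whose interval reached 1.02 on the log2 scale, and PDK4, whose interval reached -1.12, were the exceptions at 2-fold. 6 genes had all 3 overexpression values above all 3 control values (ACADM, ACADS, ECHS1, HADHA, ACAA2 and EHHADH), which is 13.0% of those tested against 6.4% of all genes, and ECI2 alone had all 3 below, which is 2.17% against 6.5%.

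**Figure D1:**
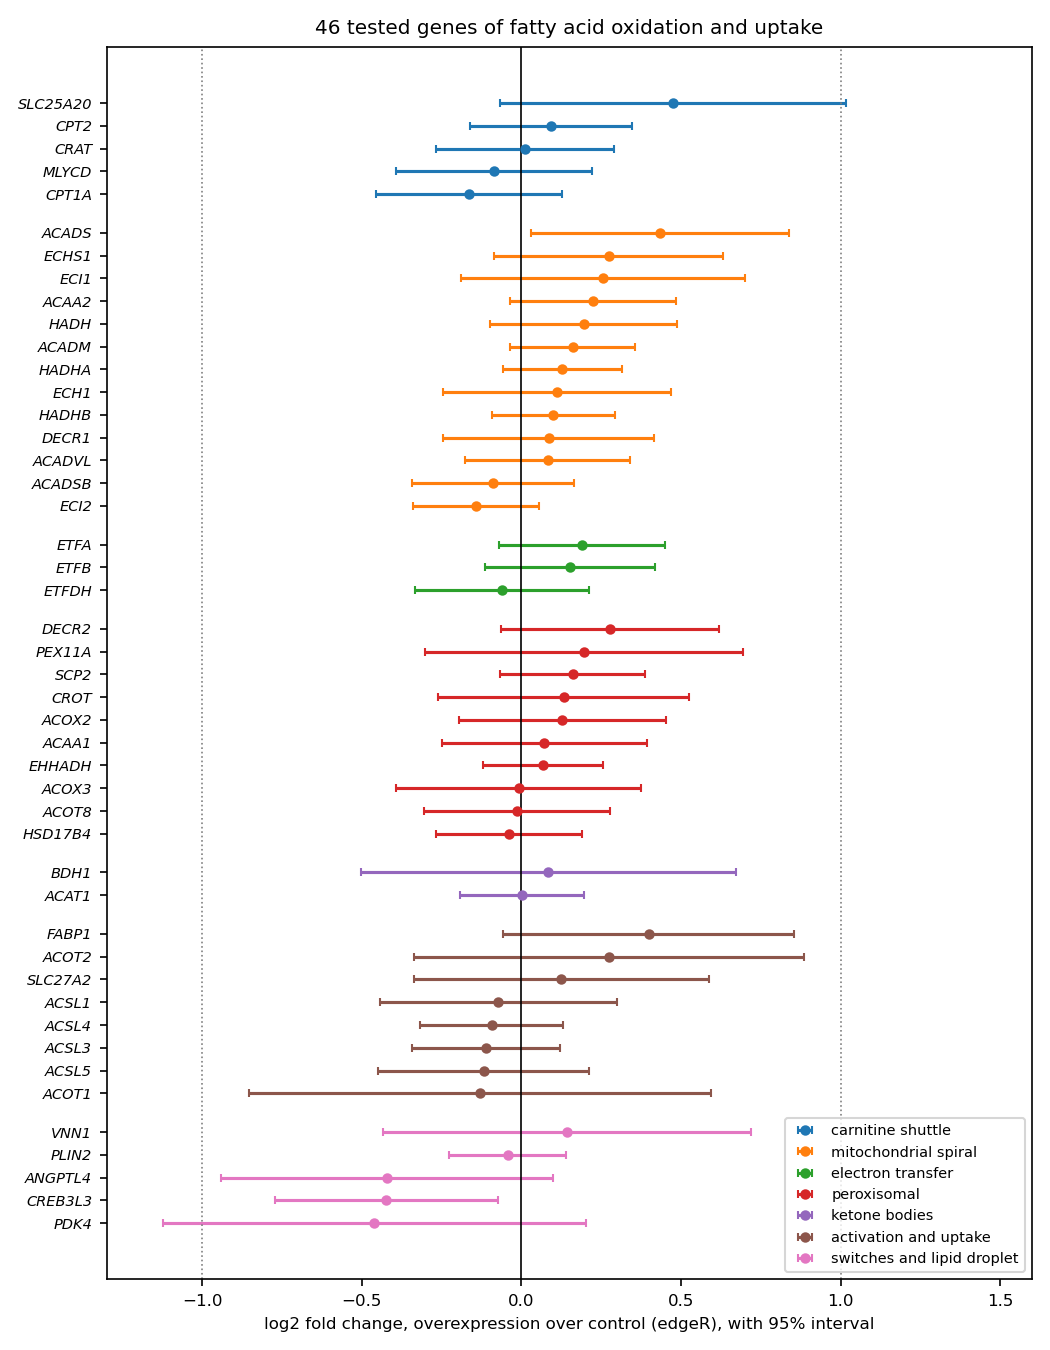
Log2 fold change of each of the 46 tested genes, overexpression over control, fitted by edgeR, with its 95% interval as a horizontal bar, grouped and coloured by step of the pathway; the dotted lines mark a 2-fold difference either way. 44 of the 46 intervals lie between the dotted lines, and those of ACADS and CREB3L3 do not reach 0.

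Control replicate 1 stood apart from the other libraries for the genes of the spiral and of electron transfer, and how it stood over all genes is not given here. It was the lowest of the 6 libraries for 18 of 46 genes and the highest for 10, and it had the largest share of counts from mitochondrial DNA (9.29%) and the most HNF4A (197 CPM against 76.2 to 114 CPM elsewhere). The median deviation of the spiral genes from their mean over libraries was -0.22 in control replicate 1, on a log2(CPM + 0.5) scale, and -0.04 to 0.11 in the other 5 libraries. Electron transfer genes deviated by -0.23 in that library. The switch genes deviated by 0.19 there and by -0.23 in overexpression replicate 2. Without control replicate 1 the median log2 fold change was 0.07 for the spiral, 0.05 for electron transfer and -0.26 for the switch genes, and no member passed an unadjusted p of 0.05. The part of the high mitochondrial share in these values was not tested.

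**Figure D2:**
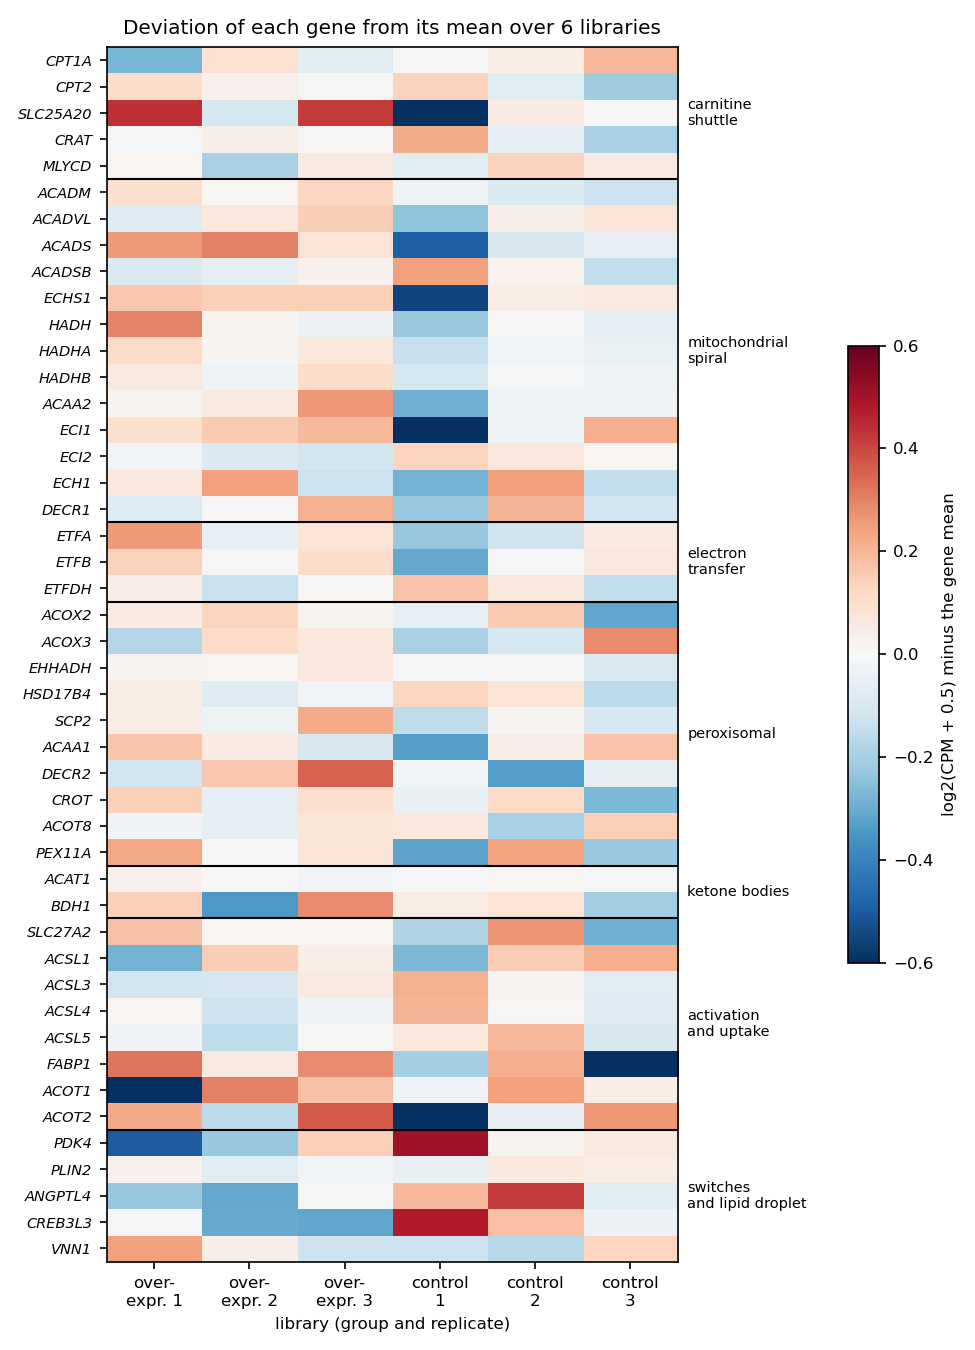
Deviation of log2(CPM + 0.5) from the mean over the 6 libraries for each tested gene (rows, by step) in each library (columns), with colours ending at 0.6 either way. Control replicate 1 is blue for most genes of the mitochondrial spiral and red for PDK4 and CREB3L3.

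Levels differed far more between genes than between groups. On a scale of CPM per kilobase of merged exon, FABP1 had a mean of 94.3 over the 6 libraries and ACSL4 one of 92.6, and their order turned with the group, since ACSL4 was higher in the controls (95.6 against 81.4) and FABP1 with overexpression (107 against 89.7). They were followed by ACSL3 at 61.4, ECHS1 at 57.2, PLIN2 at 45.9 and HADHA at 45.6. The lowest were MLYCD at 0.805, VNN1 at 0.670, PDK4 at 0.572, BDH1 at 0.337 and CD36 at 0.049. Among the highest genes of each step, SLC25A20 led the carnitine shuttle (27.5), ECHS1 the mitochondrial spiral, ETFA electron transfer (30.2), HSD17B4 the peroxisomal genes (18.6), ACAT1 the ketone body genes (9.47), FABP1 uptake and PLIN2 the switches and lipid droplet. This order depends on the length used. By the FPKM that the authors deposited, CPT2 (17.3 with overexpression and 15.9 in the controls) lay above SLC25A20 (14.9 and 10.6). By the same measure ACSL4 (60.0 and 62.8) lay above FABP1 (57.0 and 42.5). Together the 47 genes took 0.392% to 0.416% of all counts with overexpression and 0.374% to 0.405% in the controls, and these ranges overlapped.

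**Figure D3:**
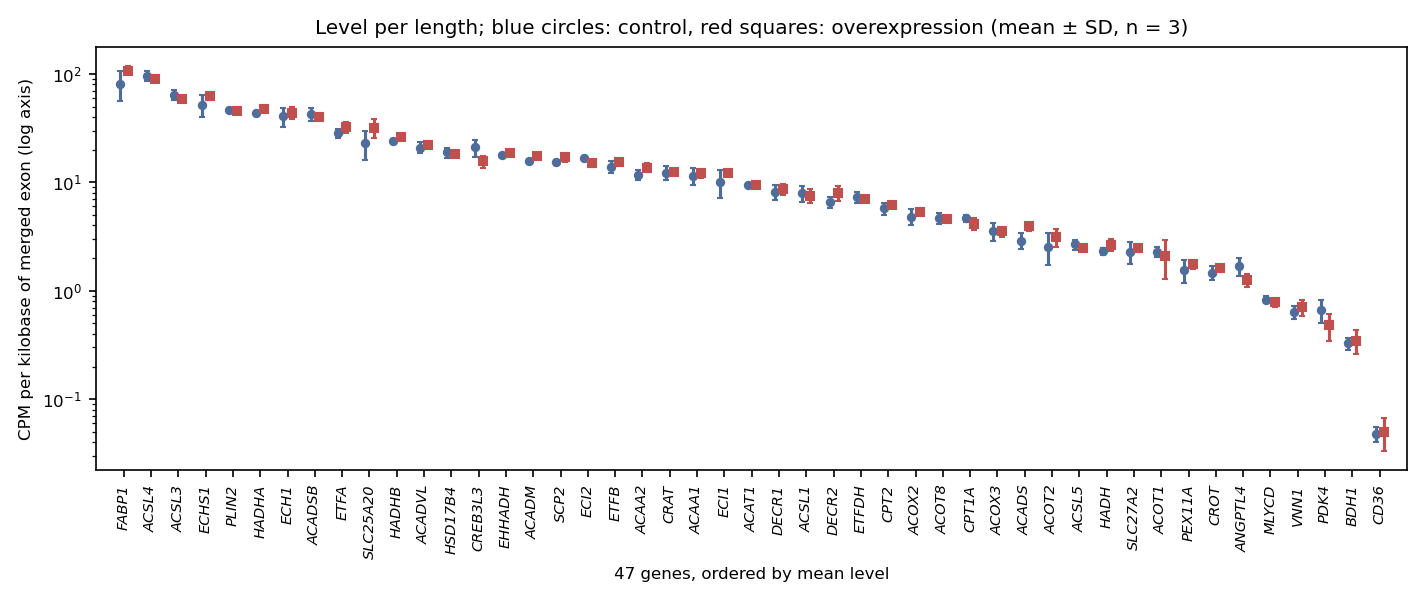
Level of each of the 47 genes in CPM per kilobase of merged exon, on a log axis, for control (circles) and overexpression (squares), as mean ± SD of 3 libraries, ordered by mean level. FABP1 and ACSL4 lie highest, CD36 lies lowest at 0.049, and for nearly every gene the symbols of the groups lie side by side.

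Uptake and activation were dominated by FABP1 and by the acyl-CoA synthetases ACSL3 and ACSL4, and no gene of the step was called. FABP1 (ENSG00000163586, chr2:88122982-88128116, minus strand), the fatty acid binding protein of the liver cytosol and a classical PPARA target, stood at 283, 235 and 276 CPM with overexpression and at 197, 264 and 143 CPM in the controls. Control replicate 2 lay inside the overexpression range and the other controls lay below it. The log2 fold change was 0.40 (SE 0.20, 95% interval -0.06 to 0.86, edgeR adjusted p = 0.797). It was 0.20 without control replicate 3 and 0.64 without control replicate 2, where it passed an unadjusted p of 0.05. ACSL1 (ENSG00000151726, chr4:184755595-184826818, minus strand), the main long-chain acyl-CoA synthetase of liver, stood at 39.4, 53.4 and 49.5 CPM against 39.9, 53.6 and 56.1 CPM, with replicate 1 the lowest in each group. Its log2 fold change was -0.07 (95% interval -0.44 to 0.30).

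The other synthetases gave values of the same size. ACSL4, which prefers arachidonic acid, stood at 597, 544 and 585 CPM against 683, 596 and 561 CPM, and the groups overlapped (log2 fold change -0.09, SE 0.10). ACSL3, which is found on lipid droplets, had -0.11 and ACSL5 -0.12. SLC27A2, a transporter that also activates very long chains, had 0.12. CD36, a fatty acid translocase of the plasma membrane and the only one of the 47 genes that failed the filter, held 5, 10 and 7 counts with overexpression and 6, 5 and 7 counts in the controls, so it was hardly detected in either group.

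ACOT1 and ACOT2, thioesterases of cytosol and mitochondria that release free fatty acids from coenzyme A, are neighbours on chromosome 14 with nearly the same sequence, and the split of reads between them is uncertain. They shared 1112 stretches of 31 bases, 65.0% of those of ACOT1 and 46.1% of those of ACOT2. Their log2 fold changes were -0.13 and 0.27, and with their counts summed the value was 0.13 (SE 0.20, edgeR adjusted p = 0.897). Over the step, 8 of 9 genes were tested, 3 lay above 0 and 5 below, and the median log2 fold change was -0.08.

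The carnitine shuttle showed no common direction. CPT1A (ENSG00000110090, chr11:68754620-68844410, minus strand) joins acyl groups to carnitine at the outer mitochondrial membrane, sets the rate of entry and is the best known hepatic target of PPARA. It stood at 23.6, 30.6 and 27.4 CPM with overexpression and at 28.8, 29.6 and 33.1 CPM in the controls. The groups overlapped, and overexpression replicate 1 was the lowest of all 6 libraries. In that library, which had the most PPARA, 5 of the 46 tested members were at their lowest and 10 at their highest, FABP1, SLC25A20 and HADHA among the latter. As many, 10, were at their highest in overexpression replicate 3 and 10 in control replicate 1, where PPARA stood at 11.4 and 6.37 CPM. The same counts over all genes are not given here. The log2 fold change of CPT1A was -0.16 (SE 0.13, 95% interval -0.46 to 0.13, edgeR adjusted p = 0.808).

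SLC25A20 (ENSG00000178537, chr3:48856931-48898993, minus strand), the carrier that exchanges acylcarnitine for carnitine across the inner membrane, had the largest positive value of all members. It stood at 71.1, 48.7 and 70.4 CPM against 29.9, 54.3 and 52.5 CPM. Control replicate 1 lay far below the other libraries, and overexpression replicate 2 lay below the other 2 controls. The log2 fold change was 0.47 (SE 0.24, edgeR adjusted p = 0.797), and it was 0.25 without control replicate 1. MLYCD, which breaks down malonyl-CoA and so relieves the block on CPT1A, stood at 13.1, 11.3 and 13.5 CPM against 12.4, 14.3 and 13.5 CPM (log2 fold change -0.09). CPT2, which returns acyl groups to coenzyme A inside mitochondria, had 0.09 and CRAT, the carnitine acetyltransferase, 0.01, and the median of the 5 genes was 0.01. Exons of CPT2 overlap those of C1orf123 and RP5-1024G6.2 on the other strand over 1250 bases in all, and how strand was handled is not given in the sources used here.

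In the mitochondrial spiral 11 of 13 genes (84.6%) lay above 0, against 50.5% of all genes tested, with a median log2 fold change of 0.13, and none was called. 5 of the 13 had all overexpression values above all control values (38.5%, against 6.4% of all genes). 1 had all values below (7.69%, against 6.5%). The spiral was not tested as a set. ACADM (ENSG00000117054, chr1:75724347-75787575, plus strand), the medium-chain acyl-CoA dehydrogenase and a classical PPARA target, stood at 85.4, 80.5 and 87.5 CPM with overexpression and at 78.3, 75.2 and 73.2 CPM in the controls. The groups did not overlap, yet the gap between the nearest libraries was small. The log2 fold change was 0.16 (SE 0.09, 95% interval -0.04 to 0.36, edgeR adjusted p = 0.797). ACADS (ENSG00000122971, chr12:120725735-120740008, plus strand), the short-chain acyl-CoA dehydrogenase, stood at 10.7, 11.1 and 9.37 CPM against 6.18, 8.26 and 8.56 CPM. All 3 overexpression values lay above the controls, with control replicate 1 the lowest. Its log2 fold change was 0.43 (SE 0.18, 95% interval 0.03 to 0.84, edgeR adjusted p = 0.797).

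The later enzymes of the spiral gave like values. ECHS1, the short-chain enoyl-CoA hydratase and the highest gene of the spiral per length, stood at 102, 101 and 101 CPM against 62.1, 94.2 and 95.04 CPM. The overexpression libraries were nearly equal, and control replicate 1 lay far below the other controls (log2 fold change 0.27, SE 0.16, and 0.10 without that library). HADHA, which carries the long-chain hydratase and dehydrogenase of the trifunctional protein, stood at 216, 202 and 208 CPM against 181, 197 and 194 CPM (log2 fold change 0.13, SE 0.08). Its lowest overexpression value lay above its highest control value by a small margin. Its partner HADHB, the long-chain thiolase, had 0.10 and overlapped between groups. ACAA2, the medium-chain thiolase, stood at 64.9, 66.7 and 76.8 CPM against 52.4, 62.9 and 63.0 CPM, without overlap (log2 fold change 0.22, SE 0.11, edgeR adjusted p = 0.797). Control replicate 1 was again the lowest library. HADH, the dehydrogenase for shorter chains, had 0.19 and ACADVL, which starts the spiral on very long chains, 0.08.

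ECI2 (ENSG00000198721, chr6:4115689-4135597, minus strand) went the other way. This enoyl-CoA isomerase, which readies unsaturated chains for the spiral, stood at 71.9, 68.4 and 67.4 CPM with overexpression and at 79.8, 76.1 and 73.2 CPM in the controls, with no overlap (log2 fold change -0.14, SE 0.09, edgeR adjusted p = 0.797). Its exons overlap 1365 bases of genes on the other strand, among them C6orf201. ECI1, the related isomerase, stood at 37.7, 39.3 and 40.4 CPM against 22.6, 34.5 and 41.1 CPM, a range so wide in the controls that its log2 fold change of 0.26 had an SE of 0.19 and was 0.052 without control replicate 1. ACADSB, for short branched chains, stood at 244, 248 and 264 CPM against 307, 263 and 234 CPM (log2 fold change -0.09). For ACADSB control replicate 1 was the highest of the 6 libraries. ECH1 and DECR1, the remaining enzymes for unsaturated chains, had 0.11 and 0.09.

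Electron transfer from the dehydrogenases was measured by 3 genes. ETFA, the alpha subunit of the electron transfer flavoprotein, stood at 180, 146 and 160 CPM against 129, 139 and 157 CPM (log2 fold change 0.19, SE 0.11, edgeR adjusted p = 0.797). Overexpression replicate 2 lay below control replicate 3, so the groups overlapped. ETFB, the beta subunit, had 0.15 and ETFDH, the oxidoreductase that passes the electrons to ubiquinone, -0.06. Over the 21 mitochondrial genes of shuttle, spiral and electron transfer, 16 lay above 0 (76.2%, against 50.5% of all genes tested) and the median was 0.11.

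**Figure D4:**
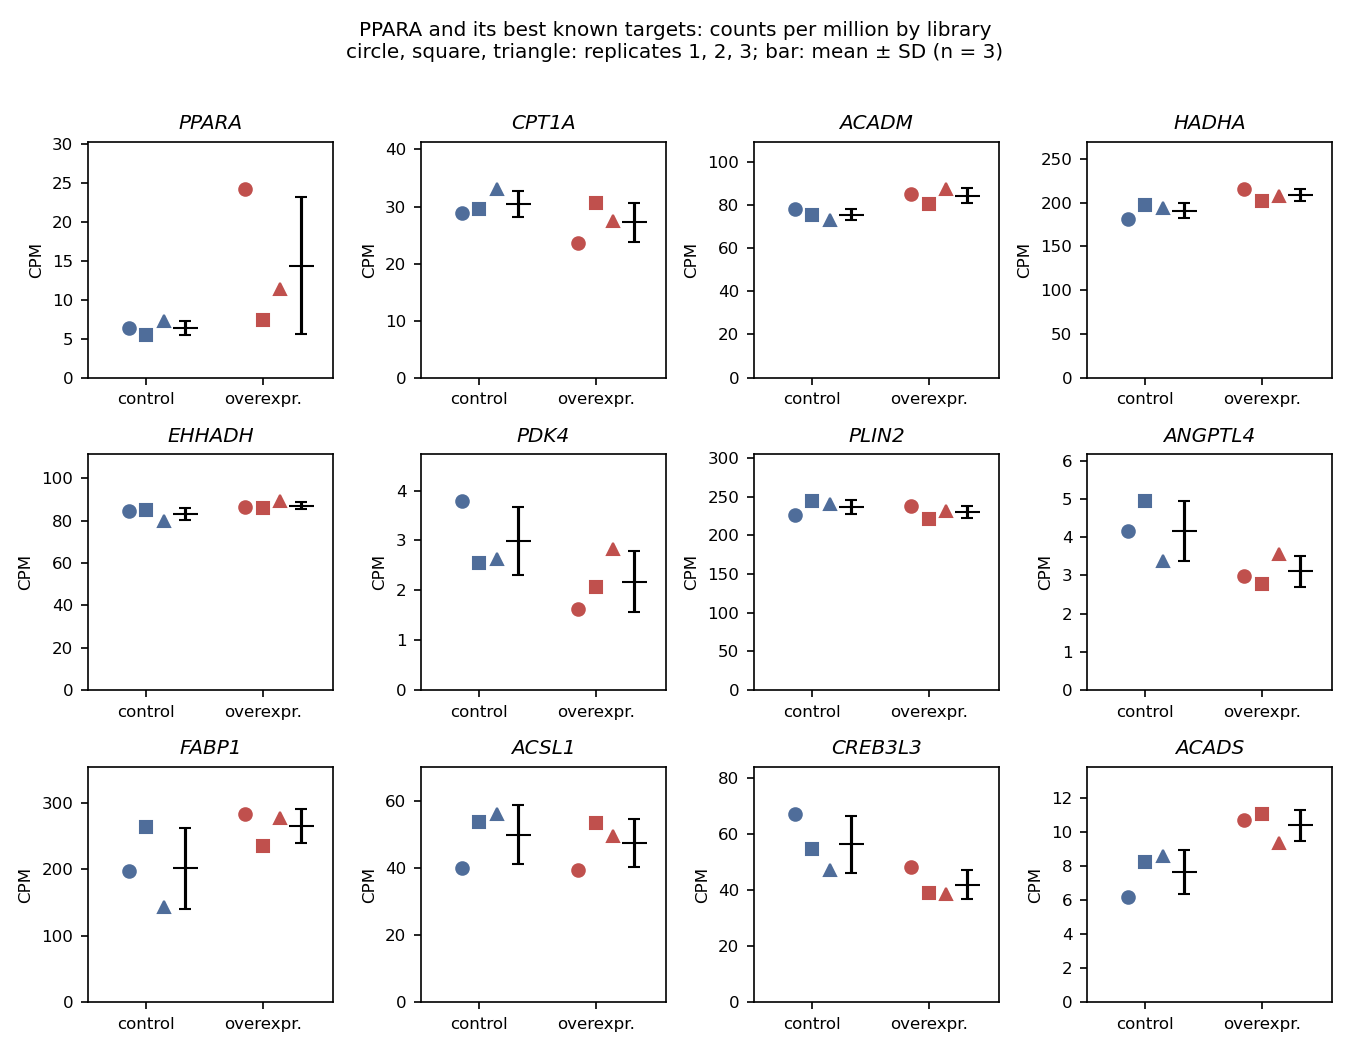
CPM in each library for PPARA and 11 of the pathway genes (circle, square and triangle for replicates 1, 2 and 3) with the mean ± SD of 3 libraries beside the points; every axis starts at 0. PPARA is far higher in overexpression replicate 1 (24.2 CPM) than in any other library, and in that library FABP1 and HADHA are at their highest and CPT1A and PDK4 at their lowest.

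The peroxisomal genes had a median log2 fold change of 0.10, with 7 of 10 above 0 (against 50.5% of all genes tested) and none called. EHHADH (ENSG00000113790, chr3:185190624-185281990, minus strand), the L-bifunctional enzyme and a strong PPARA target in rodents, stood at 86.3, 85.8 and 89.0 CPM with overexpression and at 84.6, 84.9 and 79.8 CPM in the controls. The groups did not overlap, although the difference was the smallest of the 6 genes without overlap that lay higher (log2 fold change 0.07, SE 0.08, 95% interval -0.12 to 0.25). HSD17B4, the D-bifunctional enzyme, stood at 204, 188 and 196 CPM against 217, 210 and 178 CPM (log2 fold change -0.04). ACOX2 and ACOX3, oxidases for bile acid intermediates and branched chains, had 0.13 and -0.01, and ACAA1, the peroxisomal thiolase, had 0.07.

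DECR2, a peroxisomal dienoyl-CoA reductase, had the largest value of the step at 0.28 (SE 0.15, edgeR adjusted p = 0.797), with 27.1, 32.8 and 37.6 CPM against 28.98, 23.2 and 28.1 CPM. Overexpression replicate 1 lay inside the control range, and 572 bases of the gene's exons are shared with NME4 on the same strand. SCP2, whose gene encodes a thiolase and a sterol carrier, had 0.16 and CROT, which makes carnitine esters for export to mitochondria, 0.13. PEX11A, which divides peroxisomes and is induced by peroxisome proliferators, had 0.20 with an SE of 0.22. ACOT8, the peroxisomal thioesterase, had -0.01. The exons of SCP2, ACAA1 and ACOT8 overlap other genes over more than 1250 bases each, so their counts may hold reads of those genes.

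Ketone body genes showed no detectable difference. ACAT1 (ENSG00000075239, chr11:108121516-108147776, plus strand), the mitochondrial acetoacetyl-CoA thiolase, stood at 53.8, 52.7 and 52.2 CPM with overexpression and at 52.8, 53.2 and 52.4 CPM in the controls. All 6 libraries lay within a narrow band, and the log2 fold change was 0.003 (SE 0.08, 95% interval -0.19 to 0.20). BDH1, which interconverts acetoacetate and hydroxybutyrate, was low (2.28 to 3.80 CPM with overexpression and 2.55 to 3.24 CPM in the controls), with a log2 fold change of 0.08 and an SE of 0.26.

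The switch and lipid droplet genes lay mostly below 0, with a median log2 fold change of -0.42 over 5 genes, and none was called. CREB3L3 (ENSG00000060566, chr19:4153601-4173054, plus strand), a liver transcription factor that works with PPARA in fasting, stood at 48.1, 39.0 and 38.8 CPM with overexpression and at 67.2, 54.8 and 46.98 CPM in the controls. Overexpression replicate 1 lay just above control replicate 3, so the groups overlapped. The log2 fold change was -0.42 (SE 0.15, 95% interval -0.77 to -0.07, edgeR adjusted p = 0.797), and it was -0.28 without control replicate 1.

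PDK4 (ENSG00000004799, chr7:95583499-95596491, minus strand), the kinase that shuts pyruvate dehydrogenase when fat is burned, was low in every library, at 1.63, 2.07 and 2.83 CPM against 3.78, 2.55 and 2.63 CPM. Its lowest value was in overexpression replicate 1 and its highest in control replicate 1 (log2 fold change -0.46, SE 0.29, edgeR adjusted p = 0.797). ANGPTL4 (ENSG00000167772, chr19:8363289-8374373, plus strand), a secreted inhibitor of lipoprotein lipase, stood at 2.97, 2.78 and 3.56 CPM against 4.15, 4.94 and 3.37 CPM, and overexpression replicate 3 lay above control replicate 3 (log2 fold change -0.42, SE 0.23, edgeR adjusted p = 0.797). PLIN2 (ENSG00000147872, chr9:19108375-19149290, minus strand), the coat protein of lipid droplets, stood at 237, 221 and 231 CPM against 226, 244 and 240 CPM. It was among the most even genes of the pathway, with a log2 fold change of -0.04 (SE 0.08, 95% interval -0.23 to 0.14). VNN1, a pantetheinase, had 0.14 with an SE of 0.25 at about 2 CPM.

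PPARA and RXRA bind pairs of AGGTCA-like repeats set 1 base apart, and promoter windows were searched for such pairs because some members are known PPARA targets. RefSeq windows of 300 bases around transcript starts (GRCh38.p14) were at hand for 37 of the 47 genes, as 56 windows, and each was searched on both strands. The spelling AGGTCANAGGTCA was in none of these windows and in 0.0228% of all 35116 windows. AGGNCANAGGNCA was in CREB3L3 and in 0.31% of all windows. GGNCANAGGNCA, which also matches wherever the longer spelling does, was in ACADS, CREB3L3 and FABP1, 3 of the 37 genes, and in 0.917% of all windows. These counts of genes and shares of windows are not in like units. The spellings were chosen after several had been tried, so the matches are a description only.

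These 3 promoters are shown because no other member's window held a match, with the match in capitals and on the strand of the gene. Sequence outside the windows was not searched, so a window without a match says nothing about sites elsewhere. They cover chr2:88128079-88128170 (FABP1, minus strand), chr12:120725756-120725847 (ACADS, plus strand) and chr19:4153381-4153461 (CREB3L3, plus strand). In FABP1 the match runs from base -68 to -57 relative to the RefSeq transcript start and in ACADS from -30 to -19, both as the reverse complement, and in CREB3L3 from -221 to -210 as spelled. The RefSeq starts differ from the gene coordinates given above. By those, the ACADS stretch lies inside the gene (chr12:120725735-120740008), and the FABP1 stretch spans the start of the gene at 88128116.
FABP1: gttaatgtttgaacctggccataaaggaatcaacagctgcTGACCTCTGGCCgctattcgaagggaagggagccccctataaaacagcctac
ACADS: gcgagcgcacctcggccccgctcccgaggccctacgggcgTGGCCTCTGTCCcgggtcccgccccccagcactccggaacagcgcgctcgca
CREB3L3: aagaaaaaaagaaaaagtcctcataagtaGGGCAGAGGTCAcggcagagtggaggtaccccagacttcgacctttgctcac

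The genes with a match did not share a direction. FABP1 and ACADS had log2 fold changes of 0.40 and 0.43, and CREB3L3 had -0.42, and none passed the adjusted threshold. A match is a description of letters, and binding was not measured.

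Further genes of the pathway were taken as a list of 40, and none of them was called either. 38 were tested, and 0 were called in either direction, against 0.0266% of all genes higher and 0.0133% lower. 1 was higher at an unadjusted p of 0.05, which was PPARA, and 0 were lower, against 2.42% and 3.08% of all genes. 26 lay above 0 (68.4%, against 50.5% of all genes tested) and 12 below, with a median log2 fold change of 0.05. PECR, HSD17B10, SLC27A5 and PPARA, 4 of the 38 tested, had all overexpression values above all control values, against 6.4% of all genes. None had all values below, against 6.5%. PPARA counts among these genes although the study picked it with the help of sequencing of such cells. CPT1C and ABCD2 failed the filter on low counts.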

How the data were processed

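RNA sequencing libraries of Huh7 cells, 3 with hsa_circ_0098181 overexpression and 3 controls, were grouped by sample title. Each gene had, in the table the authors deposited, a raw read count and an FPKM in every library. The submitters' processing notes name TopHat2 2.0.9 and hg38. The counting tool, strand setting and annotation are not given in the sources used here. All 47 members had the coordinates of GENCODE 29 (98.5% of all gene IDs were found there). The members and lists were chosen with earlier results of these data known.

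Counts were tested in R 4.3.3 with edgeR 4.0.16 (genes kept by filterByExpr at its minimum count of 10, TMM factors, two-sided quasi-likelihood test, group as the only term, Benjamini-Hochberg adjustment over 15055 genes). SEs were derived from the F statistic, and CPM used TMM library sizes. The biological coefficient of variation was 16.1%. Levels between genes were compared as CPM per kilobase of merged exon. Genes given in every library were the best known PPARA target of each step, members at an unadjusted p of 0.05 or without overlap between groups, the highest of each step per length and members failing the filter, and MLYCD, ECI1, ACADSB, DECR2 and ACSL4 were added after their values were seen. The values of some other genes of the pathway are not reported here, though they are kept in the counts. 3′ UTRs were read from 1 GENCODE 29 transcript per gene, and the motif spellings were chosen after several had been tried.

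Alternatives were RLE and upper-quartile factors, TMM without mitochondrial genes, DESeq2 1.42.0, filters of at least 1 count in total or a mean of 50 counts, limma 3.58.1 on log2(FPKM + 1), a replicate block, and each library left out. A spline correction for length and GC content was added after the data were seen. Chi-square tests of library pairs within groups ranged from 11.0 to 22.6 per degree of freedom, far above sampling noise. On simulated data of the same comparison over 14853 genes, 73.2% of 97 genes with a 2-fold change and 94.9% of 99 with a 4-fold change were recovered by edgeR, which called 19 of 14657 unchanged genes. The simulation held far more changed genes than the 4 higher and 2 lower that edgeR called in the data. That eases the adjusted threshold, so recovery in the data may be lower. Counts without molecular identifiers are not independent molecules.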

Additional observations from a re-analysis of the deposited data

How the results depend on the processing

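No member was called under any of the 15 alternatives, although DESeq2 called 8 genes higher and 20 lower in the whole table against 4 and 2 by edgeR, and leaving out 1 library gave 1 to 7 higher and 2 to 9 lower. The median over the members stayed between 0.083 and 0.10 under every alternative that used all libraries, and between 0.042 (without control replicate 3) and 0.111 (without control replicate 2) with 1 library left out. Members at an unadjusted p of 0.05 numbered 2 in the edgeR fit, 4 with a filter of only 1 count in total (SLC25A20, ACADS, FABP1 and CREB3L3), and 0 (without control replicate 1) to 4 (without control replicate 3) with 1 library left out. CREB3L3 passed in 12 of the 15 alternatives and ACADS in 9. The median of the carnitine shuttle was 0.077 by limma, 0.035 with the length and GC correction, and -0.076 to 0.138 with 1 library left out. The median of the spiral ran from 0.073 to 0.221 and that of uptake and activation from -0.104 to 0.054 with 1 library left out. The switch genes had -0.23 with a mean of at least 50 counts and -0.19 by limma, where fewer genes were tested, and -0.54 to -0.26 with 1 library left out. Electron transfer ran from 0.048 to 0.227, peroxisomal genes from 0.083 to 0.145 and ketone body genes from -0.025 to 0.138.

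For 26 single genes, PPARA and most of those given by library, direction held in 362 of 370 refits and was reversed in 8. ACOT2 was refitted here only as its sum with ACOT1. None of the 26 passed the adjusted threshold in any fit. Sizes moved more with 1 library left out: PPARA ran from 0.56 to 1.48, CPT1A from -0.26 to -0.07, PDK4 from -0.69 to -0.26, ANGPTL4 from -0.55 to -0.28, ACAA2 from 0.14 to 0.27, ETFA from 0.11 to 0.27, DECR2 from 0.16 to 0.39 and EHHADH from 0.039 to 0.082. With the length and GC correction MLYCD turned to 0.035 and HSD17B4 to 0.071. With 1 library left out ACADSB ran from -0.18 to 0.023, HSD17B4 from -0.12 to 0.019, ACAT1 from -0.0093 to 0.013 and ACSL1 from -0.21 to 0.045. Over all 46 tested members, 14 changed direction under at least 1 alternative, each of them with a value between -0.13 and 0.09 in the edgeR fit. The cause of these moves was not tested. The labels do not say that the replicate numbers pair the libraries, and the correlations of same-numbered deviations were -0.027, -0.005 and -0.03. No pairing was seen in them, but with 3 libraries a group they cannot exclude 1. With the replicate number as a block, 1 member passed an unadjusted p of 0.05 (CREB3L3), 0 were called, and the median was 0.089. With 3 libraries a group, 44 of 46 intervals stayed within a 2-fold difference and 31 within a 1.5-fold one, and for genes at a few CPM (PDK4, ANGPTL4, VNN1 and BDH1) the intervals were wider.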
